A study of Mus musculus with 45 samples.

Results

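Distal colon of Il10 knockout mice was compared between 2 doses of compound 13, a selective antagonist of the proton-sensing receptor GPR4 that is known here by its code name. The 16 libraries were those labelled 30 mg/kg (n = 9) or 10 mg/kg (n = 7) in the first cohort, out of 45 libraries in the series. A further library was left out because its title and its treatment field give different doses. All of these mice lacked Il10, whose product is an anti-inflammatory cytokine, and mice without it develop colitis. The 10 Il10 knockout vehicle libraries of the same cohort entered the model to estimate the spread and are given as the level without compound. RNA was taken from whole distal colon and enriched for poly(A) RNA. In all 26 knockout libraries the Y-linked gene Ddx3y had more counts than Xist, which is the male pattern. The labels give no sex, age, duration of dosing, cage or batch. Nothing in them ties each library to its own animal, and the p-values below cover the library-to-library spread alone, possibly technical.

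GPR4 is one of a family of receptors that are activated when the fluid outside the cell turns acidic, and it is known mainly from endothelial cells. Its relatives GPR65 and GPR132 are found on leukocytes. Inflamed tissue is often acidic, and in endothelial cells GPR4 signalling is known to raise adhesion molecules that leukocytes bind. The colon wall also holds lymphoid follicles, smooth muscle layers, enteric nerves and attached fat, so the content of a piece of tissue sets much of its RNA profile. In bulk samples, fewer cells of a type and less RNA per cell cannot be told apart.

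At 30 mg/kg the libraries held 24712538 to 31007363 counts, against 23572558 to 35439607 in the 10 mg/kg libraries. No Il10 count was found in any of the 26 knockout libraries. Genes with a count numbered 19658 to 20855 in the 30 mg/kg libraries, against 16168 to 20767 in those given 10 mg/kg, the lowest value being that of 10 mg/kg replicate 1. This library also stood apart on the first 2 principal components. The ribosomal RNA gene CT010467.1 had 1072 to 2082 CPM (counts scaled to a common library size) at 30 mg/kg, with a median of 1300.1, and 1701 to 4214 CPM at 10 mg/kg, with a median of 2168. It had 636 to 1389 CPM in the vehicle libraries. The part of this gene in the results was not tested as a cause. Values from a fit that holds it as a covariate, an alternative chosen after seeing the data, are given for some gene lists and genes. These are not always the ones it moved most. In that fit the pancreatic acinar list median went from 5.70 to 2.95. The skeletal muscle median went from 0.93 to -0.13, and the mast cell and eosinophil median from -0.02 to 1.02. Because its level differed between the doses, that fit can estimate the dose difference less precisely.

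**Figure D1:**
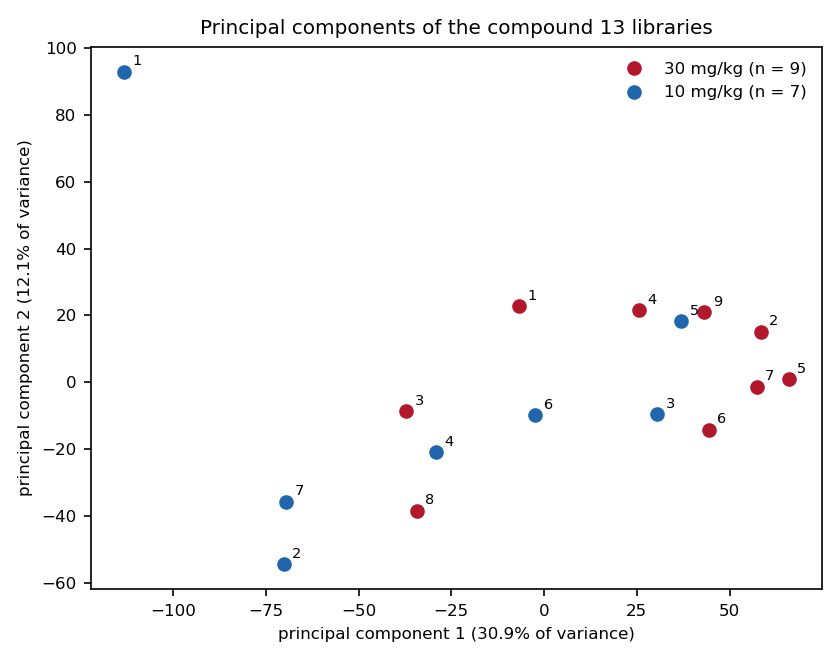
First and second principal components of the 16 compound 13 libraries, with 30.9% and 12.1% of the variance on the x and y axes (scores without units); each point is a library and the digits are replicate names. The doses overlap on the first component, from -37.1 to 66.0 at 30 mg/kg and from -113 to 37.0 at 10 mg/kg, and 10 mg/kg replicate 1 lies alone at the upper left.

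The question was which genes differed between the higher and the lower dose. None of 16948 tested genes passed an adjusted p under 0.05 in edgeR's quasi-likelihood test with Benjamini-Hochberg adjustment, which is 0%. The smallest adjusted p was 0.0747, shared by 10 genes. An unadjusted p under 0.05 was reached by 2451 genes (14.5%), of which 1111 were higher (6.56%) and 1340 lower (7.91%) at 30 mg/kg. An adjusted p under 0.1 was reached by 123 genes (0.726%), with 26 higher and 97 lower. The median log2 fold change over all tested genes was 0.02. The call depended on the model. DESeq2 called 343 genes (1.69%), 114 higher and 229 lower, and these included all 123 genes above. A fit of only the dosed libraries in edgeR called 17 genes (0.105%), all lower at 30 mg/kg. Leaving out 30 mg/kg replicate 9, 10 mg/kg replicate 5 or 30 mg/kg replicate 6 gave 75, 28 and 22 calls. The values that follow are therefore descriptions of genes that did not pass the main test.

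The 12 genes with the smallest p-values among those lower at 30 mg/kg included molecules of lymphoid tissue and leukocytes. Inhbb, which encodes a subunit of activin B, had 0.462, 0.692 and 1.66 CPM (lowest, median and highest library) at 30 mg/kg and 1.79, 2.91 and 4.33 CPM at 10 mg/kg. Every 30 mg/kg library lay below every 10 mg/kg library. Its log2 fold change was -1.73 ± 0.32 (SE; adjusted p = 0.0747, edgeR), and its vehicle libraries had 1.03, 2.11 and 5.21 CPM.

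Madcam1 encodes the vascular address molecule through which lymphocytes enter the gut wall. It had 0.420, 2.0 and 3.96 CPM at 30 mg/kg and 4.02, 5.96 and 9.40 CPM at 10 mg/kg, and the doses did not overlap. The log2 fold change was -1.52 ± 0.31 (adjusted p = 0.0747, edgeR). Cxcl13, the chemokine that draws B cells into follicles, had 11.5, 21 and 34.2 CPM at 30 mg/kg and 34.3, 62.5 and 83.8 CPM at 10 mg/kg. Its groups were again separate, by a narrow margin, with a log2 fold change of -1.35 ± 0.29 (adjusted p = 0.0779, edgeR). The vehicle libraries spanned both dose groups, at 1.35 to 7.36 CPM for Madcam1 and 14.4 to 72.4 CPM for Cxcl13.

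The promoters of these genes are shown because both genes belong to the lymphoid tissue program and had separate dose groups. They are RefSeq sequences of GRCm38.p6, from 250 bases before to 50 after the gene start, with matches to the kappaB consensus, the binding motif of NF-kappaB, in capitals. Madcam1 lies at chr10:79664309-79664608 on the plus strand and Cxcl13 at chr5:95956689-95956988 on the plus strand.
Madcam1: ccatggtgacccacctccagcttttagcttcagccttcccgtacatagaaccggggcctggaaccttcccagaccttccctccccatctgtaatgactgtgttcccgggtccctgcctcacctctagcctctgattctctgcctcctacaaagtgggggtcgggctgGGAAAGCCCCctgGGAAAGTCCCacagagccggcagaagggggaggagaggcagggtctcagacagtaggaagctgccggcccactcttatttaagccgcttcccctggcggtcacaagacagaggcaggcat
Cxcl13: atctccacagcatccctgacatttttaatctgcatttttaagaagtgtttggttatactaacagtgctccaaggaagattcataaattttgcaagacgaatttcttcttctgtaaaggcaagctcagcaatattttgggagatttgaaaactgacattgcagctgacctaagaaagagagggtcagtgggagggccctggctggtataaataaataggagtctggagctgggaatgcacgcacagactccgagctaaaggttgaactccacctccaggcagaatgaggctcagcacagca
Madcam1 held 2 matches, the first 83 bases before the start, and Cxcl13 held none. On either strand the kappaB consensus was present in 4.51% of 32851 promoters of this length, and GAGGAAGT, a motif of PU.1, in 3.20%. Of the 12 lower genes, 10 had a promoter in the table, of which 1 held a kappaB match and 0 a PU.1 match. A match describes the letters and does not show binding.

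The other lower genes had smaller or similar differences. Spi1, which encodes the myeloid and B cell factor PU.1, had 4.43, 7.23 and 12.2 CPM at 30 mg/kg and 11.5, 14.6 and 19.3 CPM at 10 mg/kg, with 8 of 9 libraries at 30 mg/kg below every one at 10 mg/kg. Ptpn6, the leukocyte phosphatase SHP-1, had 36.5, 42.7 and 56.0 CPM at 30 mg/kg and 59.6, 72.1 and 84.7 CPM at 10 mg/kg, without overlap. Bin2, a membrane-shaping protein of leukocytes, and St8sia6, a sialyltransferase, were also separate between doses, with log2 fold changes of -1.08 and -1.04. Pla2g2d, a secreted phospholipase of lymphoid tissue, had a log2 fold change of -1.25, and Hs3st3b1, a heparan sulfate sulfotransferase, of -1.12. Serpina1a, an alpha-1-antitrypsin gene, had -1.54, but it has near-identical copies between which counting may split reads. Fmnl2, a formin, had -0.71 and Nup153, a nuclear pore protein, had -0.41. The adjusted p of these 9 genes was 0.0747 to 0.0779 in edgeR.

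The 12 genes with the smallest p-values among those higher at 30 mg/kg had mostly modest differences. Pkd2l2, of the polycystin channel family, had 1.38, 1.99 and 2.92 CPM at 30 mg/kg and 0.474, 1.05 and 1.32 CPM at 10 mg/kg. Tmco6 had 12.1, 13.7 and 15.5 CPM at 30 mg/kg and 6.71, 9.67 and 11.8 CPM at 10 mg/kg. For both genes every 30 mg/kg library lay above every 10 mg/kg library. Their log2 fold changes were 1.25 ± 0.25 and 0.52 ± 0.10 (adjusted p = 0.0747 each, edgeR). Pfdn1 and Pfdn6, subunits of the prefoldin chaperone, had log2 fold changes of 0.56 and 0.61. Lamtor4, of the lysosomal Ragulator complex, had 0.73, and Nsun5, an RNA methyltransferase, had 0.68. Gm9625 and Rps3a2 are processed pseudogenes, so their values of 0.52 each are uncertain. Tstd1, Mien1, Atxn7l3b and Tmem167b had 0.51, 0.49, 0.29 and 0.25.

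**Figure D2:**
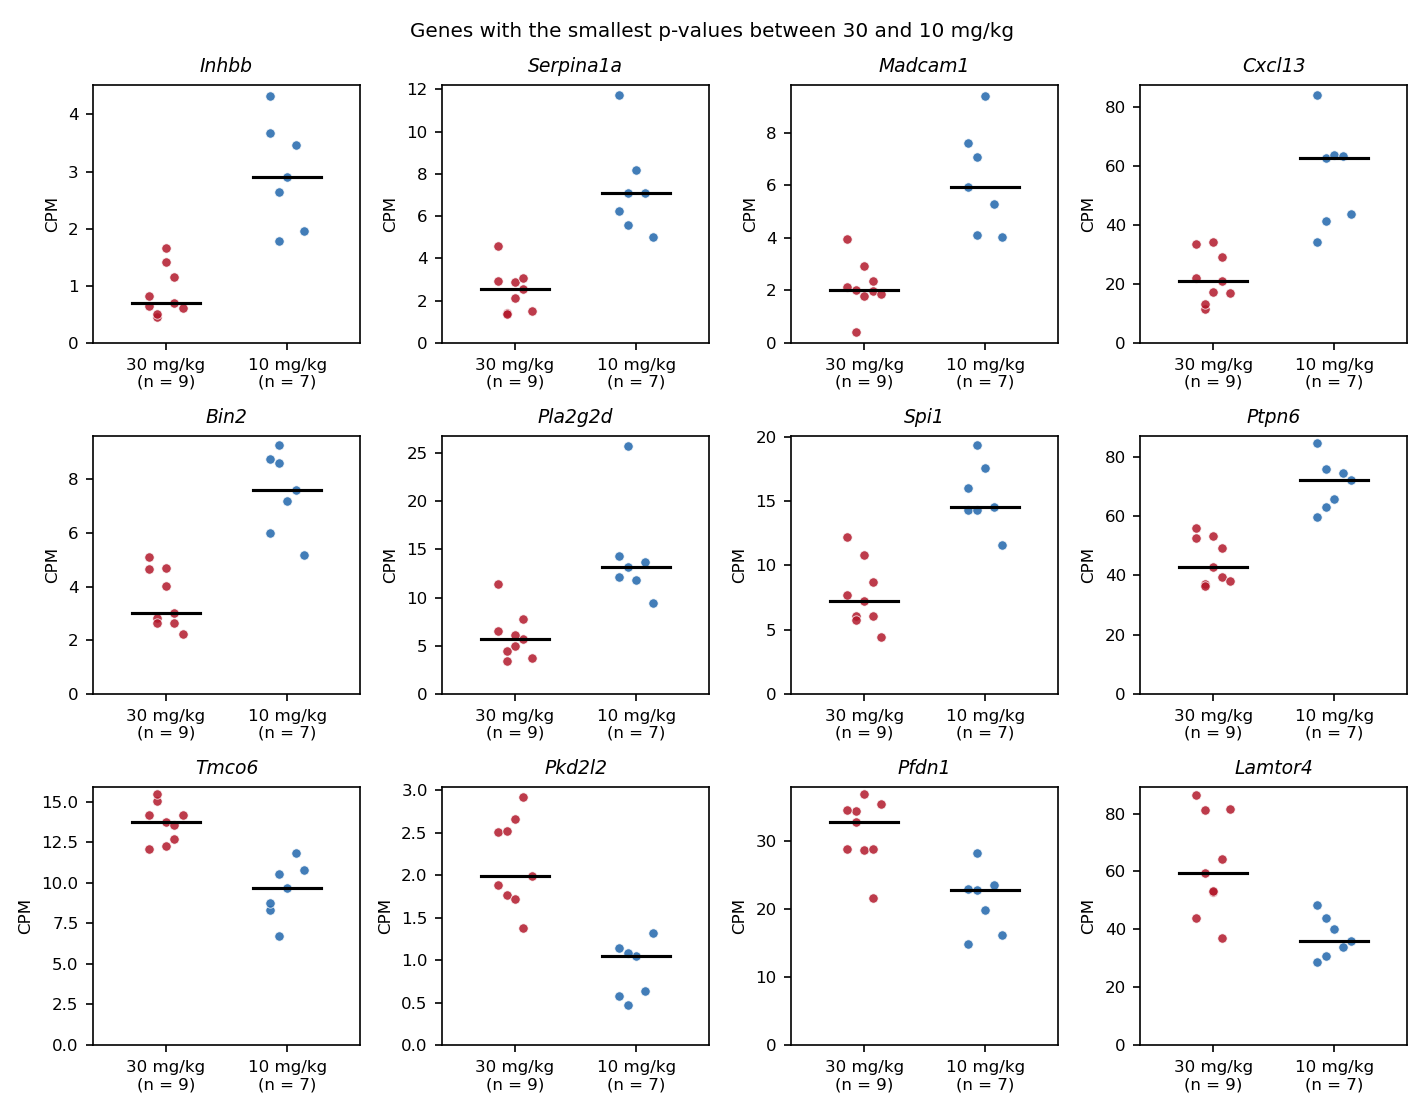
CPM (linear y axis from 0) of 12 of the 24 genes with the smallest p-values; each point is a library, with 30 mg/kg (n = 9) left of 10 mg/kg (n = 7), and the line is the median. Inhbb, Serpina1a, Madcam1, Cxcl13, Bin2, Ptpn6, Tmco6 and Pkd2l2 have dose groups that do not overlap. The genes were picked for small p between these groups. Over all tested genes 0.153% were separate and lower at 30 mg/kg, and 0.0295% separate and higher.

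Over all tested genes, 26 had every 30 mg/kg library below every 10 mg/kg library (0.153%) and 5 had every one above (0.0295%). The genes described above were picked for small p between the same groups, so their separation is no further evidence. Against vehicle, 30 mg/kg had 0 called genes in edgeR (0%), with 1004 (5.92%) at an unadjusted p under 0.05. Against vehicle, 10 mg/kg had 2 called genes (0.0118%), CT010467.1 with a log2 fold change of 1.49 and Gm9625 with -0.58. At an unadjusted p under 0.05 the 10 mg/kg contrast had 1865 genes (11%). Both dose contrasts share the vehicle libraries. For Inhbb the log2 fold change over vehicle was -1.39 at 30 mg/kg and 0.34 at 10 mg/kg. For Madcam1 it was -0.92 at 30 mg/kg and 0.60 at 10 mg/kg, and for Tmco6 0.12 at 30 mg/kg and -0.41 at 10 mg/kg. None of these 3 genes passed against vehicle, and edgeR's adjusted p ranged from 0.610 up to 0.942 at the 30 mg/kg dose and from 0.141 up to 0.681 at the 10 mg/kg dose.

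Genes of the receptor family that the compound addresses did not pass the test. Gpr4 had 0.290, 0.918 and 2.24 CPM at 30 mg/kg and 0.737, 1.28 and 2.49 CPM at 10 mg/kg, with overlapping groups. Its log2 fold change was -0.32 ± 0.36 (adjusted p = 0.706, edgeR). Without the libraries rich in pancreatic acinar markers (the acinar libraries, described below) it was 0.07. Gpr65 had a log2 fold change of -0.80 and Gpr132 of -0.74, with adjusted p of 0.208 and 0.194 in edgeR. Of 12 tested genes of leukocyte adhesion and the endothelial response to acidosis, 0 were called. At an unadjusted p under 0.05, 5 were lower, beside 7.91% of all genes, with a list median of -0.56. Madcam1, already picked for small p, is among the 5. With the B cell and follicle score, a covariate described below, 3 were lower (median -0.40). With all 3 tissue scores 3 were lower (median -0.31), and with the smooth muscle score 6 were lower and 1 higher. Leaving out single libraries gave 4 to 6 lower. Icam1, an adhesion molecule of activated endothelium and leukocytes, had 7.26, 14.8 and 25.0 CPM at 30 mg/kg and 16.6, 32.3 and 41.7 CPM at 10 mg/kg. Selp, the endothelial P-selectin, had a median of 0.314 CPM at 30 mg/kg and 0.768 CPM at 10 mg/kg. The adjusted p was 0.0834 for Icam1 and 0.136 for Selp in edgeR. The 12 general endothelial markers had a median log2 fold change of -0.24, with 3 lower and 0 higher at an unadjusted p under 0.05; Pecam1 and Kdr, both among the 3, had -0.48 and -0.66. Without the acinar libraries the endothelial median was 0.0051 and 0 of 12 were lower, and with the ribosomal RNA gene as covariate it was -0.59 with 5 lower.

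B cell and follicle marker RNA was lower at 30 mg/kg in the medians, though no gene passed the test. All 14 B cell and follicle genes were lower at an unadjusted p under 0.05, beside 7.91% of all genes, and 0 were called, with a median log2 fold change of -1.02 beside 0.02 over all genes. Their summed TPM (a level per transcript length) was 57.5, 176 and 278.5 at 30 mg/kg and 163.8, 311 and 492 at 10 mg/kg. Of the 30 mg/kg libraries, 4 lay below every 10 mg/kg library. Cxcr5, the receptor for Cxcl13 on B cells, had 3.23, 6.50 and 13.7 CPM at 30 mg/kg and 9.74, 20.6 and 24.7 CPM at 10 mg/kg. Ms4a1, a B cell surface gene, had a log2 fold change of -1.12. With the ribosomal RNA gene as covariate 6 of 14 B cell and follicle genes were lower, with a median of -0.85. Leaving out single libraries gave 13 or 14 of 14 lower.

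Other leukocyte lists had medians below 0, also with 0 called; members counted as lower or higher are those at an unadjusted p under 0.05, which 7.91% of all genes were in the lower direction. Of 14 T cell genes 9 were lower, with a median of -0.69. One 30 mg/kg library had a T cell sum of 108.9 TPM, above every 10 mg/kg library, while 7 lay below all of them. Tcf7, a T cell transcription factor, had a log2 fold change of -0.83 and Cd3e, of the T cell receptor complex, -0.80. Germinal centre genes had 5 of 6 lower and a median of -0.84, and Gcsam among them had -1.25. Lymphoid tissue organiser genes, Cxcl13 among them, had 5 of 8 lower and a median of -1.0. Macrophage genes had 6 of 11 lower and a median of -0.59. Among them Lyz2 (lysozyme, which has a close copy) had -1.0 and Csf1r, the growth factor receptor of macrophages, had -0.86. The T cell and macrophage genes named here lie beyond their list medians. Members of these 2 lists that the naming rule also picked, but that are not named, had smaller differences than the medians. Plasma cell genes had 3 of 10 lower and 1 higher; Irf4 had -0.96 and Jchain -0.54.

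These counts depended on the model and the libraries. A smaller count with the ribosomal RNA gene or tissue scores as covariates can come from lower precision as well as a smaller difference. With the ribosomal RNA gene as covariate 0 of 6 germinal centre genes were lower (median -0.21), 3 of 14 T cell genes (median -0.48), 0 of 11 macrophage genes (median -0.40) and 0 of 10 plasma cell genes (median -0.0483), while 5 of 8 lymphoid tissue organiser genes were lower. With all 3 tissue scores, described below, 0 of 6 germinal centre, 1 of 14 T cell and 0 of 11 macrophage genes were lower. Without the acinar libraries 1 of 11 macrophage, 8 of 14 T cell and 0 of 10 plasma cell genes were lower. Leaving out single libraries gave 2 to 5 of 6 lower germinal centre genes, fewest without 10 mg/kg replicate 3, 5 to 11 of 14 T cell genes, fewest without 10 mg/kg replicate 7, 5 to 7 of 11 macrophage genes and 1 to 4 of 10 plasma cell genes.

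Markers of the outer wall went the other way. All 12 smooth muscle genes had a positive log2 fold change, 5 at an unadjusted p under 0.05, beside 6.56% of all genes, with a median of 1.16. Their sum was 751, 3555 and 5629 TPM at 30 mg/kg and 274, 1169 and 3575 TPM at 10 mg/kg. Tagln and Myh11, contractile proteins of smooth muscle, had 1.31 and 1.17. Of 11 tested adipocyte genes 9 were higher at an unadjusted p under 0.05, beside 6.56% of all genes, with a median of 2.27. The adipocyte sum was 61.9, 270 and 1108 TPM at 30 mg/kg and 49.5, 83.0 and 167 TPM at 10 mg/kg, and 6 of 9 libraries at 30 mg/kg exceeded every one at 10 mg/kg. Fabp4, a fatty acid carrier of fat cells, had 5.36, 31.7 and 233 CPM at 30 mg/kg and 8.35, 11.7 and 13.8 CPM at 10 mg/kg. Adipoq and Plin1, the adipokine and the fat droplet coat protein, had log2 fold changes of 3.60 each.

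All 12 enteric neuron and glia genes had positive values, with a median of 0.94 and 0 at an unadjusted p under 0.05; with the ribosomal RNA gene as covariate the median was -0.0033, and leaving out single libraries gave 0 to 6 higher. Pancreatic acinar genes, which the colon does not normally express, had a sum of 8.54 to 12352 TPM at 30 mg/kg and 1.06 to 176 TPM at 10 mg/kg. The medians of that sum were 44.05 and 24.95 TPM. More than 100 TPM of acinar genes stood in 4 of 9 libraries at 30 mg/kg and 2 of 7 at 10 mg/kg. The acinar list median was 5.70 with these libraries and -0.74, over 5 tested genes, without them. The erythroid sum reached 4596 TPM in 30 mg/kg replicate 2, and the erythroid median, 1.92 with it, was -0.59 without it. Without 10 mg/kg replicate 1, the library that stood apart, the list medians were -0.92 for B cell and follicle, 1.0 for smooth muscle and 2.06 for adipocyte genes, and 1921 genes had an unadjusted p under 0.05. The members at an unadjusted p under 0.05 were then 13 of 14, 0 of 12 and 7 of 11, in that order of lists. The smooth muscle count was also 0 without 10 mg/kg replicate 2 or 7 and was 12 without 10 mg/kg replicate 3, so it rests on single libraries, while the median stayed between 0.97 and 1.51. Leaving out single libraries gave 6 to 10 higher adipocyte genes, fewest without 30 mg/kg replicate 2, with a median of 1.51 there. Over vehicle, the list medians at 30 and 10 mg/kg were -0.74 and 0.28 for B cell and follicle genes. They were 0.31 and -0.87 for smooth muscle genes and 0.92 and -1.08 for adipocyte genes. For enteric neuron and glia genes they were 0.14 and -0.85, and for acinar genes -0.21 and -5.79. Differences between the doses thus include departures of the 10 mg/kg libraries from vehicle. The part of these tissues in the gene differences was not tested as a cause.

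**Figure D3:**
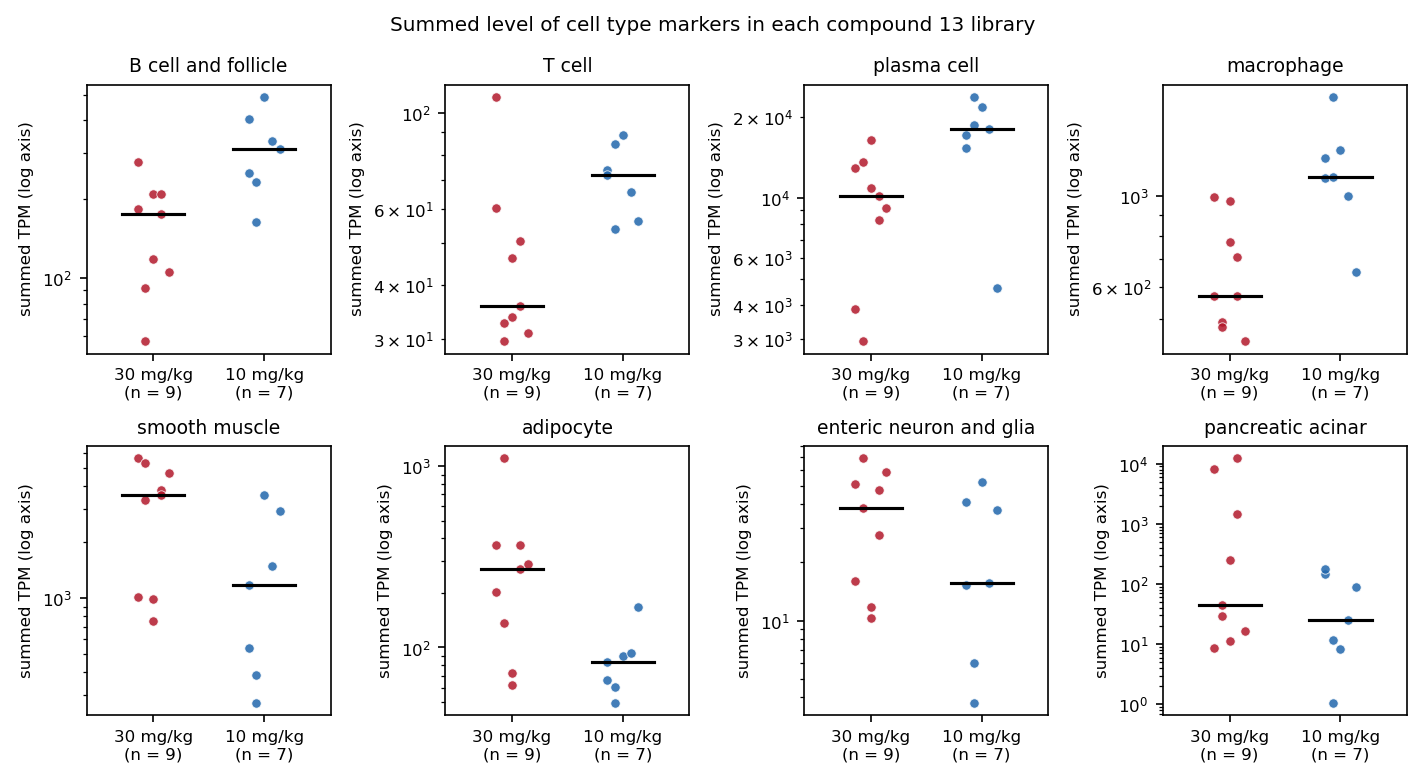
Summed TPM (log y axis) of 8 cell type lists in each library, with 30 mg/kg (n = 9) left of 10 mg/kg (n = 7) and the median as a line. B cell and macrophage sums are mostly lower at 30 mg/kg and smooth muscle and adipocyte sums mostly higher, with overlap in each list.

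Most epithelial lists had medians near that of all genes, and inflammatory lists had medians below it in the main model, with 0 called; the inflammatory medians were near 0 or positive in several covariate fits. Proliferation genes had a median of -0.03 and 0 of 10 at an unadjusted p under 0.05. Goblet cell, intestinal stem cell, enteroendocrine and tuft cell lists had medians of 0.15, 0.20, 0.13 and 0.01. Zg16, a goblet cell lectin, had 0.35 and Lrig1, a stem cell regulator, 0.43. Colonocyte transport genes had -0.16. Interferon gamma response genes had 3 of 17 lower at an unadjusted p under 0.05, beside 7.91% of all genes, and a median of -0.67, with Gbp5, a guanylate-binding protein, at -1.37. The count was 7 of 17 in the fit of only the dosed libraries, 10 of 17 without the acinar libraries (median -0.95) and 9 of 17 without 10 mg/kg replicate 5. It was 0 of 17 with the adipocyte score or the ribosomal RNA gene, and the median was -0.0064 with the smooth muscle score, -0.0191 with the ribosomal RNA gene and 0.10 with all 3 scores. The epithelial response to interleukins 22 and 17 had 1 of 14 lower and a median of -0.69; Lcn2, an antimicrobial lipocalin, had -1.51 and Reg3g, an antimicrobial lectin, had -2.35 with an SE of 1.27. That median was 0.14 with the smooth muscle score, 0.0513 with the adipocyte score and 0.23 with the ribosomal RNA gene. Inflammatory cytokine genes had a median of -0.69 and 1 of 10 lower, Il12b at -1.29; the median was 0.40 with the adipocyte score, 0.49 with all 3 scores and 0.59 with the ribosomal RNA gene. Drug and xenobiotic metabolism genes had a median of 0.07 and 1 of 13 lower, Ahrr at -1.04. A single lower gene in a list of 10 to 14 is near the share over all genes. Leaving out single libraries gave 0 to 4 lower genes for the interleukin 22 and 17 list and 0 to 5 for the cytokine list. Without 30 mg/kg replicate 8 these were 4 of 14 (median -1.34) and 5 of 9 tested (median -1.51).

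**Figure D4:**
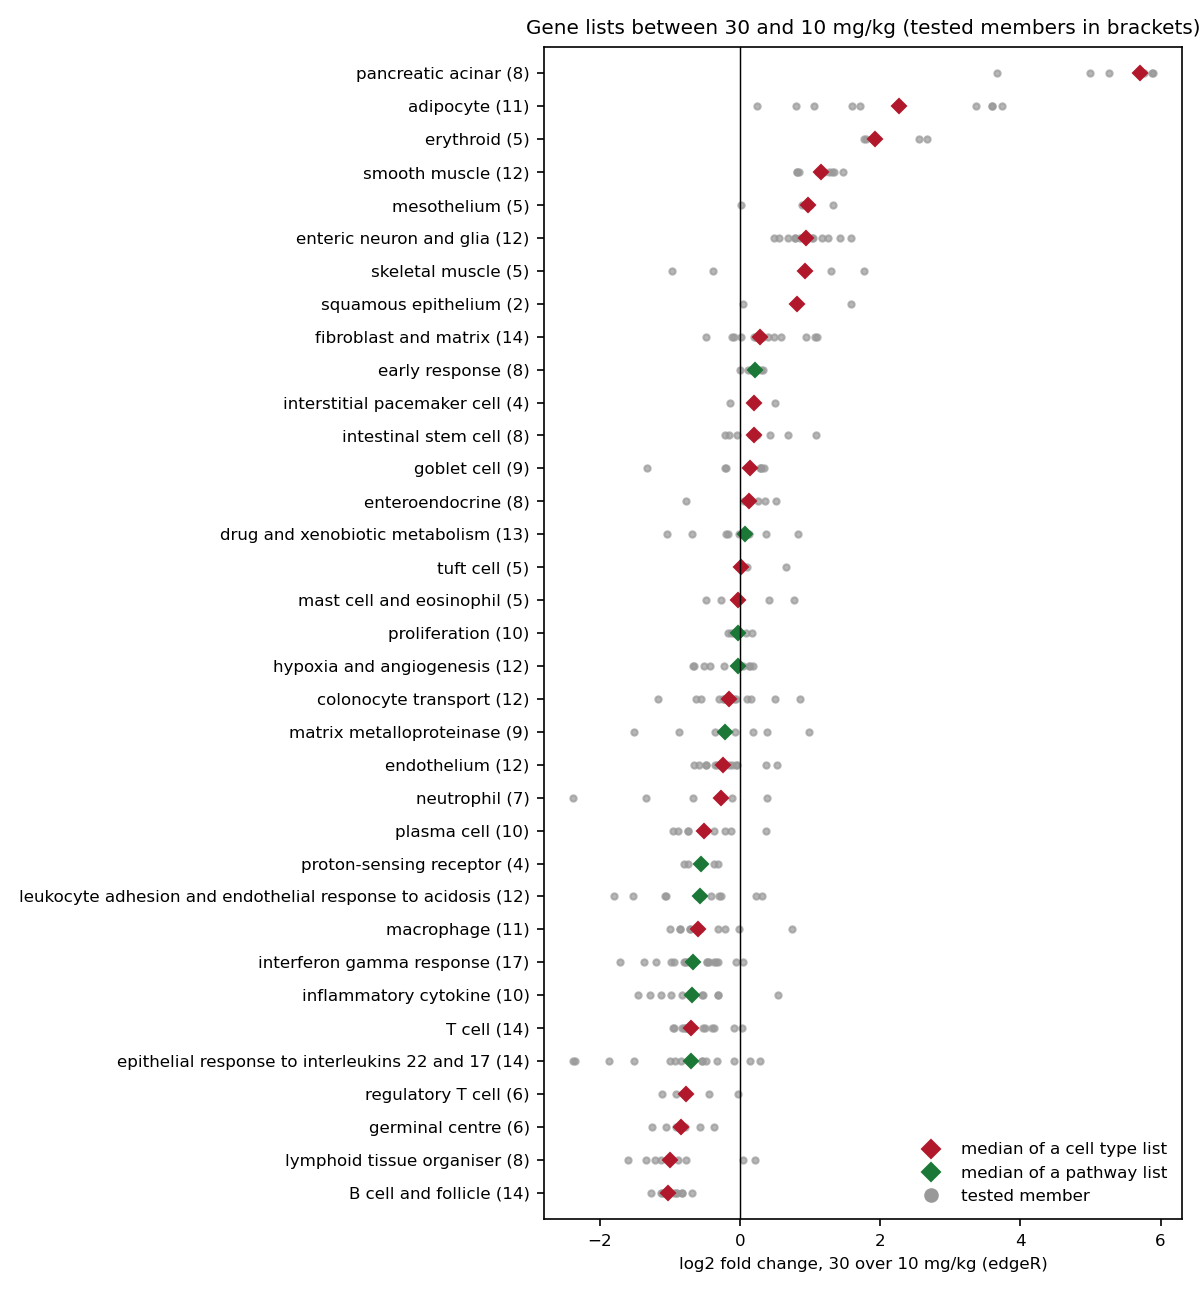
Log2 fold change of 30 over 10 mg/kg (x axis, edgeR) for tested members (grey) and the list median (diamonds) of 35 gene lists. B cell genes have the lowest median (-1.02), and adipocyte (2.27) and acinar genes (5.70) the highest. The acinar median was -0.74 without the libraries over 100 TPM of acinar markers.

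Because the tissue sums differed between doses, the comparison was refitted with list scores as covariates. The score was the mean log2(CPM + 1) of a list in a library. With the B cell and follicle score in the model 644 genes (3.80%) had an unadjusted p under 0.05, with the smooth muscle score 2159 (12.7%), with the adipocyte score 1317 (7.77%) and with all 3 scores 866 (5.11%). With the ribosomal RNA gene as covariate it was 1487 (8.77%). None of these fits called a gene. Cxcl13 had a log2 fold change of -0.57 with the B cell score and -0.43 with all 3 scores, and Madcam1 had -0.85 and -0.83. Inhbb had -1.43 and -1.14, and Pkd2l2 had 1.3 in both. With the ribosomal RNA gene as covariate Inhbb had -1.66, Madcam1 -1.63, Cxcl13 -1.07 and Pkd2l2 1.46. The 24 genes kept their direction in every alternative fit. They were picked for small p in these same libraries, so a kept direction was likely in advance and is no separate evidence. A score made after dosing can carry part of a dose effect, so these fits do not separate tissue content from treatment. Smooth muscle genes had a median of 0.07 and adipocyte genes of 2.07 with the ribosomal RNA gene as covariate, and smooth muscle 0.88 and adipocyte 1.44 with the B cell score.

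**Figure D5:**
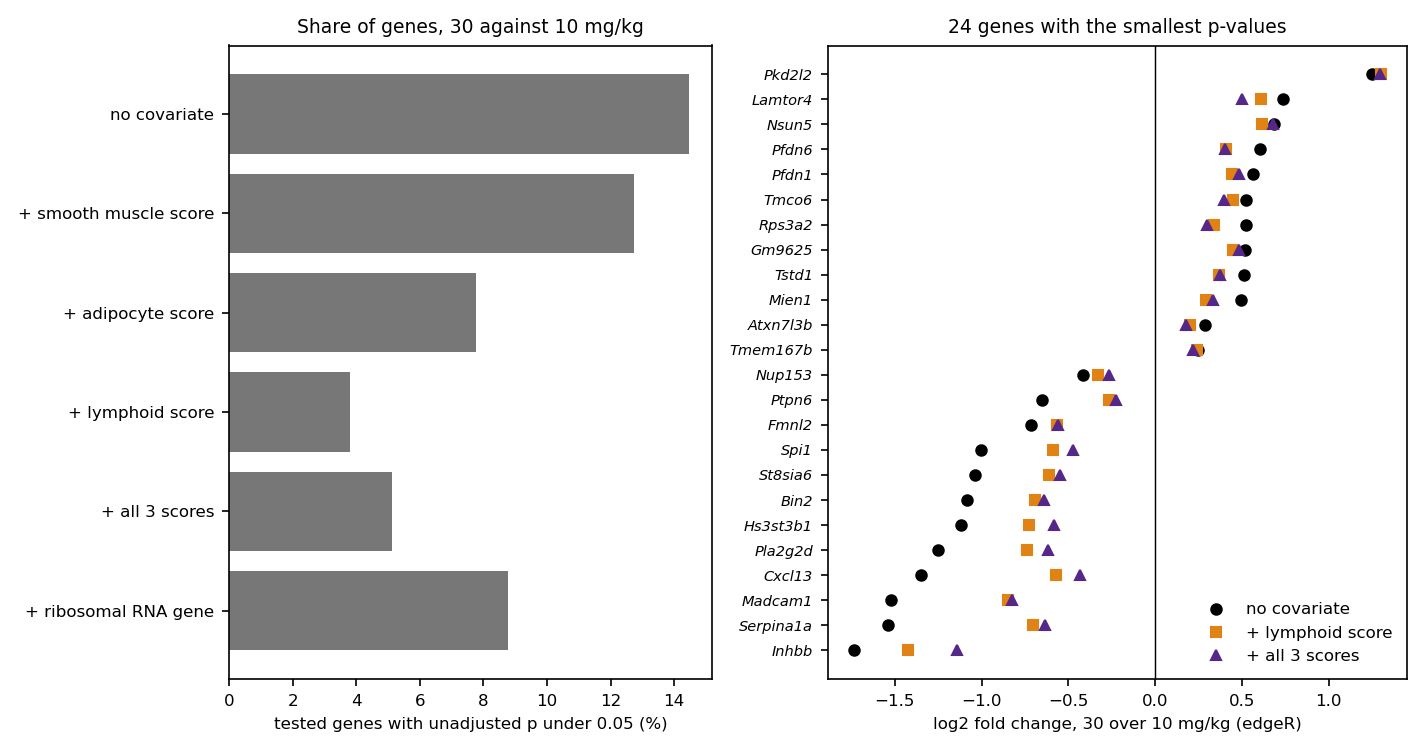
Left, share of the 16948 tested genes with an unadjusted p under 0.05 (%, bars from 0) without and with covariates; the lymphoid score is the B cell and follicle score. Right, log2 fold change of 30 over 10 mg/kg for the 24 genes without a covariate, with the lymphoid score and with all 3 scores. The share goes from 14.5% without a covariate to 3.80% with the lymphoid score. Covariates that differ between the doses can lower precision, which can also make a share smaller. All 24 genes, which were picked for small p in the fit without a covariate, stay on their side of 0.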

How the data were processed

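The authors deposited estimated counts per gene, not normalized, of which 17.1% of values above 0 were not whole numbers, and TPM for the same libraries. Per the submitters' processing notes, the build was mm10 and the tools named, with no roles, were RSEM 1.3.3, STAR 2.7.8a, DESeq2 1.30.1 and cutadapt 3.7. Symbols and coordinates came from GENCODE M21 (GRCm38), which matched 50376 of 50600 identifiers. Strandedness was not given in the sources used here, so overlapping genes cannot be told apart.

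Counts were rounded and tested in edgeR 4.0.16 under R 4.3.3 (robust quasi-likelihood, TMM, default filter) in one fit of 26 knockout libraries, with a call at an adjusted p under 0.05. Alternatives used DESeq2 1.42.0, limma 3.58.1, other scalings and filters, tissue scores as covariates and each dosed library left out. Scripts were tested on simulated data. Labels number no replicates; numbers follow deposited order. No libraries of a dose agreed within sampling noise. A count of 0 allows up to 3 counts, 0.0847 to 0.127 CPM per dosed library, for counting error only.

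Members and lists were chosen with earlier results of these data known. The rule named the 12 genes of smallest p in each direction with a mean of at least 1 CPM in the higher dose group. Inhbb, with a mean of 0.888 CPM at 30 mg/kg, and Pkd2l2, with 0.899 CPM at 10 mg/kg, passed only through their higher group. The rule also named the 4 receptors, and from each list the first 2 tested members and the member of smallest p. Of the 94 list members so picked, 36 were kept for the text after their values were seen. Their direction reversed in an alternative for 11 of the 36 and for 47 of the 58 others. Some genes of the rule are not reported here.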

Additional observations from a re-analysis of the deposited data

Results flagged for a closer look

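Among 198 sets of values of 1 dose, 21 had a library far from the others by Dixon's criterion; chance gives about 1 in 20. In 10 mg/kg replicate 5 the lowest values were 25.5 CPM for Csf1r, 7.62 CPM for Gbp5, 4.42 CPM for Hs3st3b1 and 378 CPM for Jchain. The same library was lowest for the plasma cell list, at 4642 TPM, and the proton-sensing receptor list, at 6.29 TPM. In 30 mg/kg replicate 9 the lowest values were 87.1 CPM for Atxn7l3b, 21.6 CPM for Pfdn1, 48.2 CPM for Tstd1 and 2849 CPM for Zg16. In 30 mg/kg replicate 2 Alas2, an enzyme of haem synthesis in red cells, was highest at 25.2 CPM, the erythroid list highest at 4596 TPM and Madcam1 lowest at 0.420 CPM. In 30 mg/kg replicate 8 Lcn2 was highest at 13.6 CPM and the matrix metalloproteinase list at 128.6 TPM. In 30 mg/kg replicate 4 Scnn1g, a sodium channel subunit, was lowest at 2.0 CPM. In 10 mg/kg replicate 7 Mmp12 was highest at 21 CPM and Pla2g2d at 25.7 CPM. In 10 mg/kg replicate 2 Insl5 was highest at 126.2 CPM and Tcf7 lowest at 5.69 CPM. In 10 mg/kg replicate 3 the mesothelium list was highest at 21.98 TPM. Why these libraries differed was not tested.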

How the results depend on the processing

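No paired analysis was possible because the labels number no replicates and the doses share no numbers. The count of called genes was 0 in the main model, with RLE or upper quartile scaling, other filters, voom, no robust estimates and every covariate. It was 17 (all lower) with only the dosed libraries and 343 (114 higher, 229 lower) in DESeq2, of which 9 had 0 counts in every library of a dose. It was 5 (3 higher, 2 lower) in limma on log2(TPM + 1), 1 (lower) with a pseudocount of 0.1, and 1 (higher) without the libraries over 100 TPM of acinar markers, an alternative chosen after seeing the data, as were those with the ribosomal RNA gene. Leaving out each library gave 0 to 75 calls, 0 to 32 higher and 0 to 43 lower; without 10 mg/kg replicate 1 it was 0. The cause was not tested.

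Directions reversed for 12 of the 64 genes that could be named, in fits with a covariate for all but Gpr4. These 64 were left after list members were dropped with their values seen. They include the 24 genes picked for small p, of which 0 reversed. Over all 122 genes of the rule, 59 reversed in an alternative. The smooth muscle score holds Myh11, the adipocyte score holds Adipoq, Plin1 and Fabp4, and the B cell and follicle score holds Ms4a1. Fits with a score that holds the gene take up its difference by construction. For the other reversals listed here the cause was not tested. With the B cell score Alas2 had -0.34. With the smooth muscle score Jchain had 0.0686 and Myh11 -0.00688. With the adipocyte score Jchain had 0.0733, Adipoq -0.73, Plin1 -0.61, Fabp4 -0.12 and Alas2 -0.38. With all 3 scores Il2ra had 0.28, Jchain 0.27, Adipoq -0.33, Fabp4 -0.24, Alas2 -1.24 and Il12b 0.0123. With the ribosomal RNA gene Jchain had 0.24, Myh11 -0.0863 and Mmp12 0.13. With that gene and the 3 scores Ms4a1 had 0.0631, Gcsam 0.25, Il2ra 0.22, Jchain 0.52, Adipoq -1.19, Plin1 -0.85, Fabp4 -0.28, Alas2 -0.66, Il12b 0.24 and Mmp12 0.20. Gpr4 had 0.0729 without the acinar libraries.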

Other observations

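The library with conflicting dose labels had summed levels of 264.7 TPM for B cell and follicle genes, 3568 TPM for smooth muscle, 180.7 TPM for adipocyte and 4549 TPM for pancreatic acinar genes. It had 0.81 TPM of Inhbb, 11.6 TPM of Madcam1, 53.6 TPM of Cxcl13, 10.5 TPM of Tmco6 and 0.61 TPM of Pkd2l2.

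Pkd2l2, Pfdn1 and Tmco6, among the 12 genes of smallest p higher at 30 mg/kg, lie within 2.33 Mb of chromosome 18, from 34408489 to 36742397 in GRCm38, a grouping noticed after their values were seen. Of 45 tested genes in that stretch 4 were higher and 3 lower at an unadjusted p under 0.05. Over all genes 6.56% were higher and 7.91% lower. Pkd2l2, Pfdn1 and Tmco6 set the ends of the stretch and are among the 4 higher genes. The higher count was thus partly fixed in advance and cannot be read against the share over all genes.

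By quartile of exon length, short to long, the median log2 fold change of 30 over 10 mg/kg was 0.10, 0.03, 0.01 and -0.03.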
